A study of Mus musculus with 10 samples.

Results

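Chemokines, interleukins, colony-stimulating factors (CSFs) and ligands of the tumour necrosis factor (TNF) family were followed at the RNA level while mouse fibroblasts were reprogrammed toward pluripotency. Members were the genes whose symbol is that of a numbered Ccl or Cxcl chemokine, Cx3cl1, a numbered interleukin, Csf1 to Csf3, Tnf or a numbered Tnfsf ligand, and which have a protein-coding transcript. This gave 82 of the 45706 genes in the tables, after 3 of 85 matching symbols were left out because they had no protein-coding transcript. They comprised 24 CC chemokines (counting Cx3cl1, the CX3C chemokine), 13 CXC chemokines, 30 interleukins, 3 CSFs and 12 TNF family ligands.

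Chemokines are small secreted proteins that bind G protein-coupled receptors and direct cell migration. Interleukins and CSFs act through cytokine receptors on the survival, growth and activation of target cells, and TNF family ligands are trimeric proteins, often membrane bound, that signal through receptors of the TNF receptor family. Fibroblasts are a known stromal source of many of these proteins, and several of the genes are classical targets of the transcription factor NF-κB in inflammation.

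Each of 5 groups had 2 libraries, 10 in all, described by the submitters as biological replicates without saying whether they came from separate animals or cultures, so the p-values measure the spread between these libraries. All groups are labelled with the strain C57BL/6 x 129. The fibroblasts (mouse embryonic fibroblasts, MEFs) carried a doxycycline-inducible cassette of Oct4, Klf4, Sox2 and Myc (OKSM) in the Col1a1 locus together with the M2rtTA transactivator in Rosa26. The MEF group was unsorted and grown in MEF medium without doxycycline. Day 3, day 6 and day 9 cells had the same genotype and were kept in embryonic stem cell (ESC) medium with doxycycline at 1 µg/ml and ascorbic acid at 50 µg/ml. Day 3 cells were unsorted, and the 2 later groups were sorted on the surface antigen SSEA1. The ESC group was the unsorted V6.5 line, cultured on irradiated feeder cells in ESC medium containing leukaemia inhibitory factor. Day 3 against MEF therefore combines induction of the factors with a change of medium, doxycycline and ascorbic acid. The MEF and day 3 libraries also differed in sex-linked RNA, with values given below, so that comparison combines this difference too. Day 6 against day 3 combines time with sorting. In bulk samples fewer cells of a type and less RNA per cell cannot be told apart.

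Libraries held 29585876 to 38275024 estimated reads. Fibroblast marker genes summed to mean TPM, a length-corrected measure, of 9692 (MEF), 508 (day 3), 24.8 (day 6), 11.7 (day 9) and 864 (ESC), and 11 of 12 were higher in ESCs than at day 9. Pluripotent cell markers summed to 0.682 TPM in MEFs, 89.5 at day 9 and 2509 in ESCs. Epithelial and keratinocyte markers summed to 9.64 (MEF), 4.62 (day 3), 57.2 (day 6), 268 (day 9) and 120.02 (ESC). On the leukocyte list, Ptprc did not exceed a group mean of 0.928 CPM (reads scaled to library size, without correction for gene length). Cd3e was at 0 outside the ESC libraries, where it averaged 1.88 CPM. The whole 11-gene list summed to TPM values of 6.56 (MEF), 87.6 (day 3), 151 (day 6), 114 (day 9) and 86.2 (ESC), led by Laptm5 at 2.43 CPM in MEFs and 372 at day 6. From day 3 to day 6 the sum does not follow most of the list. Of 10 tested members, day 3 against MEF had 6 higher and 0 lower, but day 6 against day 3 had 0 higher and 6 lower. In ESCs against MEFs 8 were higher and 0 lower, beside 25.5% and 20.6% of all tested genes. In ESCs the macrophage genes Lyz2 and Cd68 averaged 50.1 and 25.5 CPM. Xist averaged 0.766 CPM in MEFs and 1009.9 at day 3, and the Y-linked Ddx3y 88.5 and 0.0713, so the MEF and induced libraries also differed in sex-linked RNA. The part of these differences in the ligand results was not tested.

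The summed RNA of the 82 ligand genes decreased through induction and changed in makeup. On the length-corrected TPM scale MEFs had a sum of 365 ± 3.2 (SD, n = 2), day 3 of 315 ± 6.8, day 6 of 213 ± 7.7, day 9 of 127 ± 3.9 and ESCs of 139 ± 6.4. CC chemokines and Cx3cl1 were the largest class of the MEF sum at 161 TPM, and their later sums were 82.5 (day 3), 36.5 (day 6), 26.6 (day 9) and 39.0 (ESC). CXC chemokines summed to TPM values of 117 (MEF), 31.6 (day 3), 8.93 (day 6), 8.67 (day 9) and 37.9 (ESC). Interleukins and TNF family ligands were at their highest sums in the induced libraries. Interleukins summed to TPM values of 15.8 (MEF), 59.2 (day 3), 71.3 (day 6), 44.3 (day 9) and 7.86 (ESC). TNF family ligands summed to 23.0, 85.8, 73.2, 37.2 and 19.0 TPM in the same order. A few genes carried each sum. Ccl7 held 23.9% of it in MEFs, Tnfsf12 22.8% at day 3, Il34 32.1% at day 6 and 31.6% at day 9, and Csf1 25.1% in ESCs. These shares count all transcripts of a gene, and short entries weigh more per read in TPM. For Tnfsf12, an entry of 331 bases, Tnfsf12-003, took 15.98% of the reads at day 3. The Il34 shares include short processed transcripts.

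**Figure D1:**
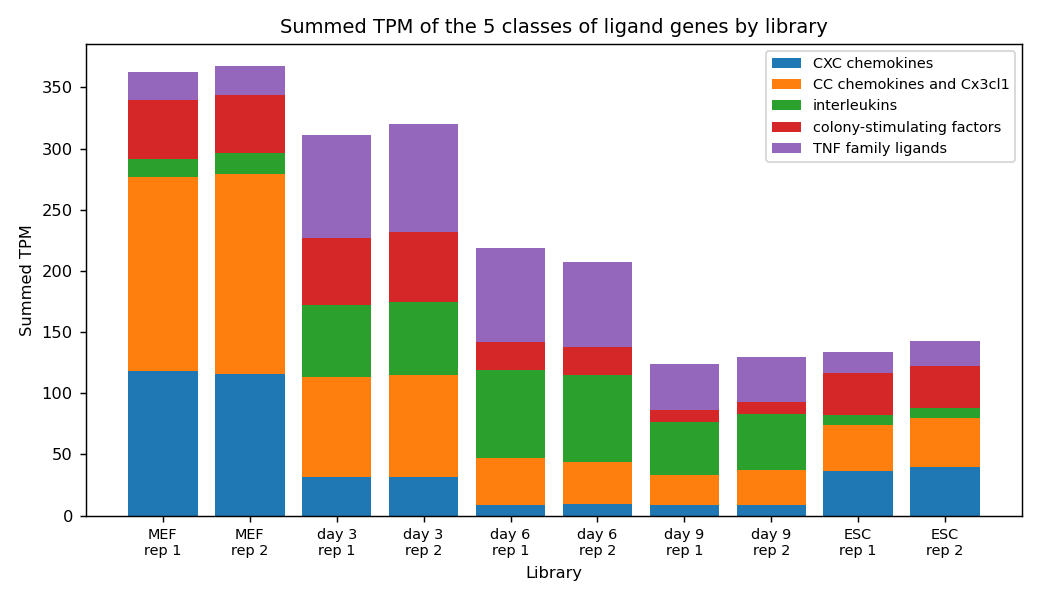
Summed TPM of the 5 classes of ligand genes (vertical axis) in each of the 10 libraries (horizontal axis), stacked by class. CXC and CC chemokines fill most of the MEF bars, while interleukins and TNF family ligands fill most of the day 6 bars, with class means of 71.3 and 73.2 TPM there.

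Of the 82 genes, 42 passed the low-count filter and were tested, among 20165 genes in all. The 40 that were not tested had at most 16 reads in any library and 7 of them had none in all 10, among them Il17a, Il20 and Il22. The inflammatory cytokine genes Il1a and Il1b had at most 11 and 5 reads, and Csf2 and Csf3 at most 1 and 5, so any change in them was not detectable at this depth. A gene was called when edgeR's quasi-likelihood test gave a Benjamini-Hochberg adjusted p-value under 0.05 over all tested genes and a change of at least 1 on the log2 scale in either direction. Since a gene could pass the filter through the group in which it is high, the counts of called genes are descriptions of the list.

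Between MEFs and day 3, 7 of the 42 tested ligand genes were higher, against 14.6% of all tested genes, and 13 were lower, against 14.5%. The ligand median was a log2 fold change of -0.66, beside 0.08 over all genes. From day 3 to day 6, 5 were higher (9.26% of all genes) and 17 were lower (10.2%), with medians of -0.93 and 0.03. From day 6 to day 9, 3 were higher (5.18%) and 5 were lower (2.68%). In ESCs against day 9, 20 were higher (18.6%) and 11 were lower (14.3%). Over the whole induction, day 9 against MEF, 8 were higher (24.1%) and 22 were lower (19.8%), with medians of -1.33 for the ligands and 0.19 for all genes. In ESCs against MEFs, 8 were higher (25.5%) and 13 were lower (20.6%). The share of lower genes among the tested ligands was above that over all genes in all 6 comparisons. In ESCs against day 9, 47.6% of the tested ligands were called higher, beside 18.6% of all genes. Some of them passed the filter only through the ESC libraries, so that share describes the list. Il10 had 22 and 18 reads in ESCs and Ccl6 46 and 60, with at most 2 and 3 in any other library. With limma on log2(TPM + 1), 5 ligands were called higher there instead of 20.

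Counts by class are small and differences between classes were not tested. At day 3, where 14.6% of all tested genes were higher and 14.5% lower, of 9 tested CXC chemokines, 5 were lower than in MEFs and 1 was higher (55.6% and 11.1%). Of 7 tested TNF family ligands 4 were higher and 1 was lower (57.1% and 14.3%). Of 12 interleukins, 5 were lower and 1 was higher (41.7% and 8.3%). Of 13 CC chemokines, 2 were lower and 1 was higher (15.4% and 7.7%), which is near or under the share over all genes. At day 6, 6 of the 13 CC chemokines and 6 of the 9 CXC chemokines were lower than at day 3 (46.2% and 66.7%, against 10.2% of all genes), and 0 were higher in either class (9.26% of all genes). In ESCs against day 9, 9 of the 13 CC chemokines were higher and 3 were lower (69.2% and 23.1%, against 18.6% and 14.3% of all genes). The 17 called genes that reached a mean of 5 CPM in some group are described one by one, first the chemokines, with gene positions on GRCm38.

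**Figure D2:**
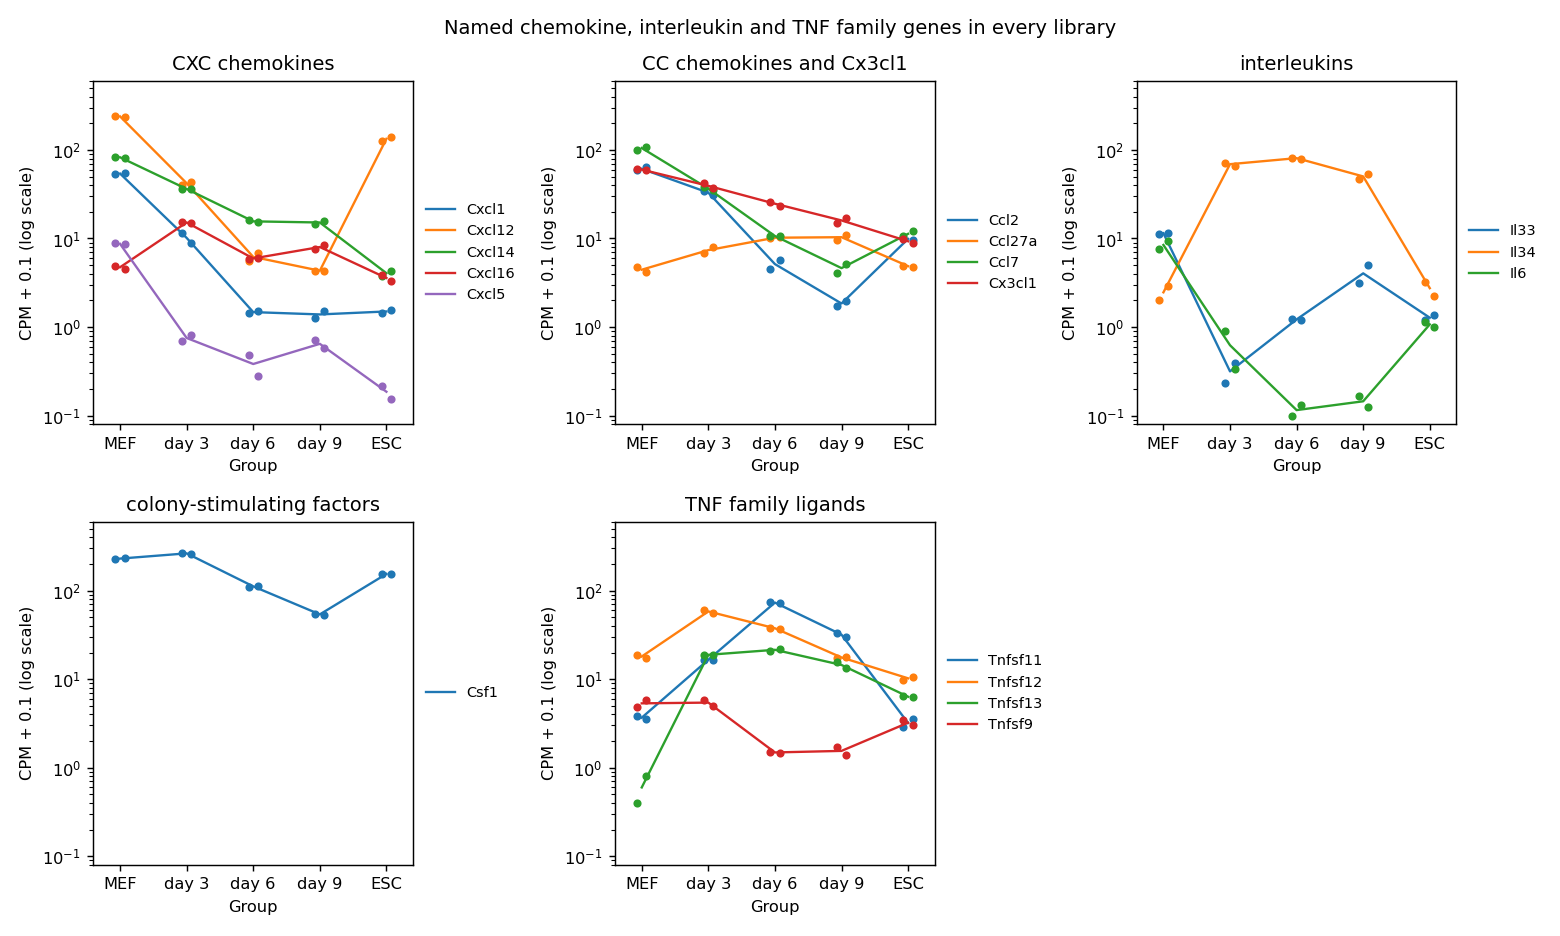
CPM plus 0.1 on a log scale (vertical axis) for the 17 named ligand genes in the 5 groups (horizontal axis), 1 panel per class. Points are single libraries and lines join the group means of 2 libraries. Most chemokines run downward to day 9, whereas Il34, Tnfsf11, Tnfsf12 and Tnfsf13 peak in the induced groups.

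Cxcl12 (chr6:117168535-117181367), the stromal chemokine that binds Cxcr4 and Ackr3, was the most abundant CXC chemokine in MEFs. Its level was 239.6 and 238 CPM in the MEF libraries, 40.4 and 43.5 at day 3, 5.50 and 6.68 at day 6, 4.24 and 4.19 at day 9 and 126 and 140.5 in ESCs. The 5 groups did not overlap, and the induced libraries lay below both MEFs and ESCs. It fell at day 3 by -2.51 (SE 0.06, edgeR adjusted p = 4.6e-14) on the log2 scale, fell again at day 6 by -2.78 (SE 0.09, edgeR adjusted p = 2.6e-12), and was higher in ESCs than at day 9 by 4.98 (SE 0.08, edgeR adjusted p = 1.6e-15). At day 9 its log2 fold change against day 6 was -0.53 (SE 0.13), short of the fold minimum. The ESC level was measured in libraries in which fibroblast markers summed to 864 TPM, against 11.7 at day 9.

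Cxcl12 has several annotated transcripts that differ in the end of the coding sequence, shown here because the shares of reads given to Cxcl12-002 and Cxcl12-003 moved as the gene fell. The last 30 of the 267 coding bases that the 3 forms share are in lower case and the bases of each form's own end, with the stop codon, are in capitals (GENCODE M21, plus strand).
Cxcl12-001: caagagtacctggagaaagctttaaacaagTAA
Cxcl12-002: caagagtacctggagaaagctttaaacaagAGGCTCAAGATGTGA
Cxcl12-003: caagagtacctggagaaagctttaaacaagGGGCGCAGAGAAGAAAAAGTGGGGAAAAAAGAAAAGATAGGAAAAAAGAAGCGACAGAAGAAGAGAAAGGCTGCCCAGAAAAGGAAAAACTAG
The end of Cxcl12-003 has 93 own bases with the stop codon, that of Cxcl12-002 has 15, and that of Cxcl12-001 is the stop codon alone. Cxcl12-001 held a mean of 55.39% of the gene's estimated reads in the MEF group. Its mean share was 54.75% (day 3), 57.96% (day 6), 55.44% (day 9, with 46.65% and 64.23% in the 2 libraries) and 66.64% (ESC). Cxcl12-002 held 35.99% and 37.37% in the MEF libraries, 26.45% and 26.49% at day 3, 5.77% and 13.52% at day 6, 0.0% and 0.0% at day 9 and 27.7% and 28.89% in ESCs. Cxcl12-003 went the other way, at 6.74% and 5.73% in MEFs, 15.39% and 16.56% at day 3, 32.28% and 26.4% at day 6, 43.48% and 34.21% at day 9 and 4.57% and 3.94% in ESCs. These are model-based divisions of short reads. The gene had 6485 and 7815 reads in MEFs but 187 and 221 at day 6 and 132 and 166 at day 9, so the shares at the later days rest on few reads and no test was run on them.

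**Figure D3:**
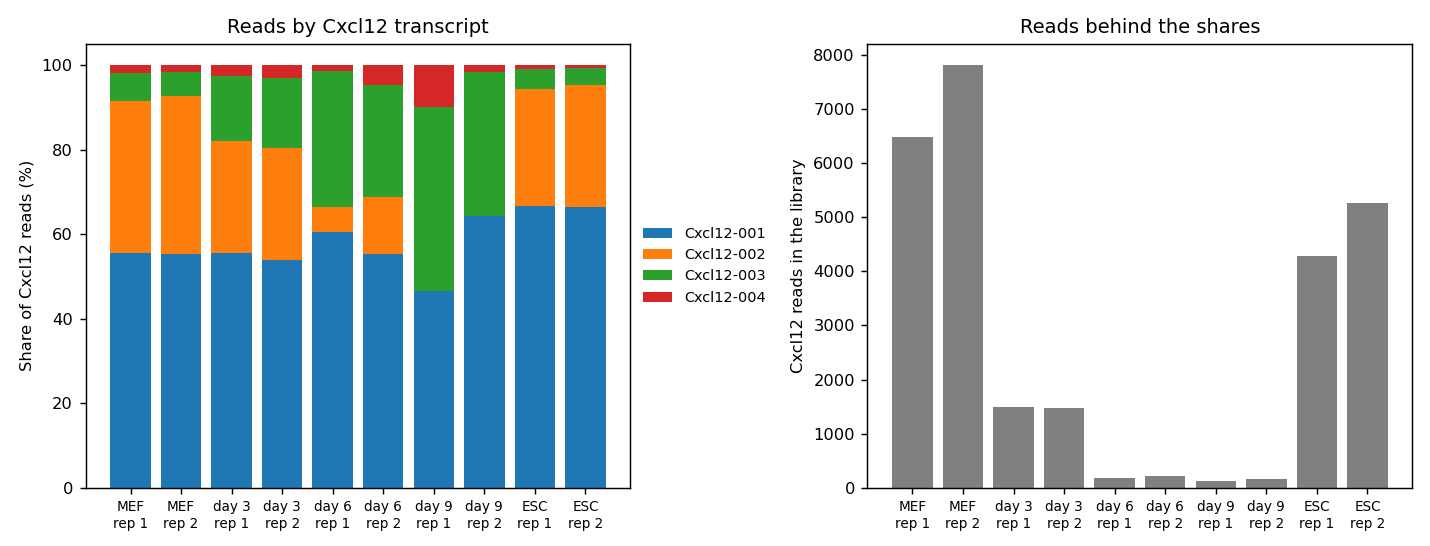
Left, share of Cxcl12 reads (%, vertical axis) assigned to each annotated transcript in the 10 libraries (horizontal axis). Right, the number of Cxcl12 reads behind those shares. The Cxcl12-002 segment shrinks to a mean of 0.0% at day 9, where the libraries hold 132 and 166 reads.

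Cxcl1 (chr5:90891241-90893115), a neutrophil-attracting chemokine, was at 53.3 and 54.6 CPM in MEFs, 11.3 and 8.75 at day 3, 1.32 and 1.42 at day 6, 1.16 and 1.41 at day 9 and 1.33 and 1.47 in ESCs. MEFs were highest, day 3 was intermediate, and the last 3 groups overlapped near 1 CPM. It fell at day 3 by -2.42 (SE 0.10, edgeR adjusted p = 1.9e-11) and at day 6 by -2.87 (SE 0.15, edgeR adjusted p = 9.7e-10) on the log2 scale. Between ESCs and day 9 its log2 difference was 0.11 (SE 0.22), which was not called.

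Cxcl5 (chr5:90759360-90761624), a related neutrophil chemokine, was at 8.68 and 8.48 CPM in MEFs, 0.592 and 0.709 at day 3, 0.382 and 0.181 at day 6, 0.611 and 0.480 at day 9 and 0.118 and 0.0534 in ESCs. Both MEF libraries stood far above all others, and days 3 and 9 overlapped. The log2 difference at day 3 was -3.72 (SE 0.28, edgeR adjusted p = 3.3e-08). The lower call at day 6, -1.19 (SE 0.39, edgeR adjusted p = 0.017), was lost with limma on log2(TPM + 1) (-0.16) and on log2(TPM + 0.1) (-0.76). Without day 3 replicate 2 the value was -1.06, and without day 6 replicate 2 it was -0.76, and neither was called. The ESC libraries held only 4 and 2 reads of it.

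Cxcl14 (chr13:56288643-56296551), an atypical chemokine of epithelia and stroma, was at 83.8 and 81.1 CPM in MEFs, 36.3 and 35.97 at day 3, 15.9 and 15.1 at day 6, 14.3 and 15.8 at day 9 and 3.68 and 4.22 in ESCs. Days 6 and 9 overlapped and ESCs were lowest, the reverse of Cxcl12 at that last step. It fell at day 3 by -1.19 (SE 0.05, edgeR adjusted p = 7.8e-11), at day 6 by -1.22 (SE 0.06, edgeR adjusted p = 5.9e-10) and was lower in ESCs than at day 9 by -1.93 (SE 0.09, edgeR adjusted p = 9e-11). With library totals in place of TMM scaling the day 3 value was -0.98, under the fold minimum.

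Cxcl16 (chr11:70453983-70459984), a membrane-anchored chemokine and scavenger receptor whose receptor is Cxcr6, was the CXC chemokine that rose at day 3. It was at 4.84 and 4.42 CPM in MEFs, 15.3 and 14.9 at day 3, 5.76 and 5.93 at day 6, 7.52 and 8.28 at day 9 and 3.77 and 3.18 in ESCs. Day 3 stood above the other 4 groups, which did not overlap one another. It rose at day 3 by 1.71 (SE 0.11, edgeR adjusted p = 6.2e-09), fell at day 6 by -1.37 (SE 0.11, edgeR adjusted p = 7e-08) and was lower in ESCs than at day 9 by -1.19 (SE 0.12, edgeR adjusted p = 6.5e-07). That last call was lost with limma on log2(TPM + 1) (-0.55) and on log2(TPM + 0.1) (-0.84). The gene overlaps Zmynd15 on the opposite strand, which itself rose at day 3 (2.78 (SE 0.21), edgeR adjusted p = 2.1e-08), and reads of overlapping genes may be divided with error.

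Among the CC chemokines, Ccl2 and Ccl7, neighbours on chromosome 11 that attract monocytes, fell step by step. Ccl2 (chr11:82035571-82037453) was at 58.8 and 63.3 CPM in MEFs, 34.4 and 31.2 at day 3, 4.41 and 5.66 at day 6, 1.64 and 1.84 at day 9 and 10.05 and 9.53 in ESCs. Its groups did not overlap. The day 3 value of -0.90 (SE 0.07) was under the fold minimum, although DESeq2 gave -1.02 and a call. It then fell by -2.71 (SE 0.10, edgeR adjusted p = 1.2e-11) at day 6 and by -1.52 (SE 0.16, edgeR adjusted p = 3.8e-06) at day 9, and was higher in ESCs than at day 9 by 2.48 (SE 0.14, edgeR adjusted p = 1e-09).

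Ccl7 (chr11:82045712-82047525) was at 101 and 109 CPM in MEFs, 37.6 and 35.2 at day 3, 10.6 and 10.5 at day 6, 4.02 and 5.03 at day 9 and 10.5 and 11.9 in ESCs. Day 6 and ESC libraries were alike in level, and day 9 was lowest. The log2 fold changes were -1.53 (SE 0.06, edgeR adjusted p = 3.8e-11) at day 3, -1.79 (SE 0.08, edgeR adjusted p = 1.6e-10) at day 6, -1.21 (SE 0.11, edgeR adjusted p = 1.1e-06) at day 9 and 1.29 (SE 0.11, edgeR adjusted p = 9.8e-08) for ESCs against day 9. As for Cxcl12, the ESC values of both genes stand beside the fibroblast marker sum of 864 TPM in those libraries.

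Cx3cl1 (chr8:94772009-94782427), which is made as a membrane-bound adhesion protein and can be shed, decreased in smaller steps. Its level was 61.1 and 58.5 CPM in MEFs, 41.7 and 36.7 at day 3, 25.7 and 23.4 at day 6, 14.98 and 16.8 at day 9 and 9.63 and 8.76 in ESCs. The groups lay in that order without overlap. No single step passed the fold minimum (log2 fold changes -0.61, -0.67, -0.63 and -0.80), but day 9 was lower than MEF by -1.91 (SE 0.08, edgeR adjusted p = 1.2e-11) and ESC lower than MEF by -2.70 (SE 0.08, edgeR adjusted p = 6.1e-13).

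Ccl27a (chr4:41769467-41774247), a skin-associated chemokine, was the one CC chemokine above 5 CPM that was higher at day 9 than in MEFs. It was at 4.62 and 4.05 CPM in MEFs, 6.73 and 7.83 at day 3, 10.02 and 10.2 at day 6, 9.58 and 10.9 at day 9 and 4.83 and 4.70 in ESCs. Days 6 and 9 overlapped above the other groups. Day 9 was higher than MEF by 1.25 (SE 0.12, edgeR adjusted p = 3.6e-07), and ESC was lower than day 9 by -1.11 (SE 0.12, edgeR adjusted p = 1.3e-06). The values are uncertain, since the gene overlaps Il11ra1, an interleukin receptor gene on the opposite strand, and has a near-identical copy, Ccl27b, listed with 0 reads. With limma on log2(TPM + 1) the 2 calls were lost, at 0.89 and -0.56, and likewise on log2(TPM + 0.1), at 0.96 and -0.60. With protein-coding transcripts only, the value for ESC against day 9 was -0.92, also under the fold minimum.

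**Figure D4:**
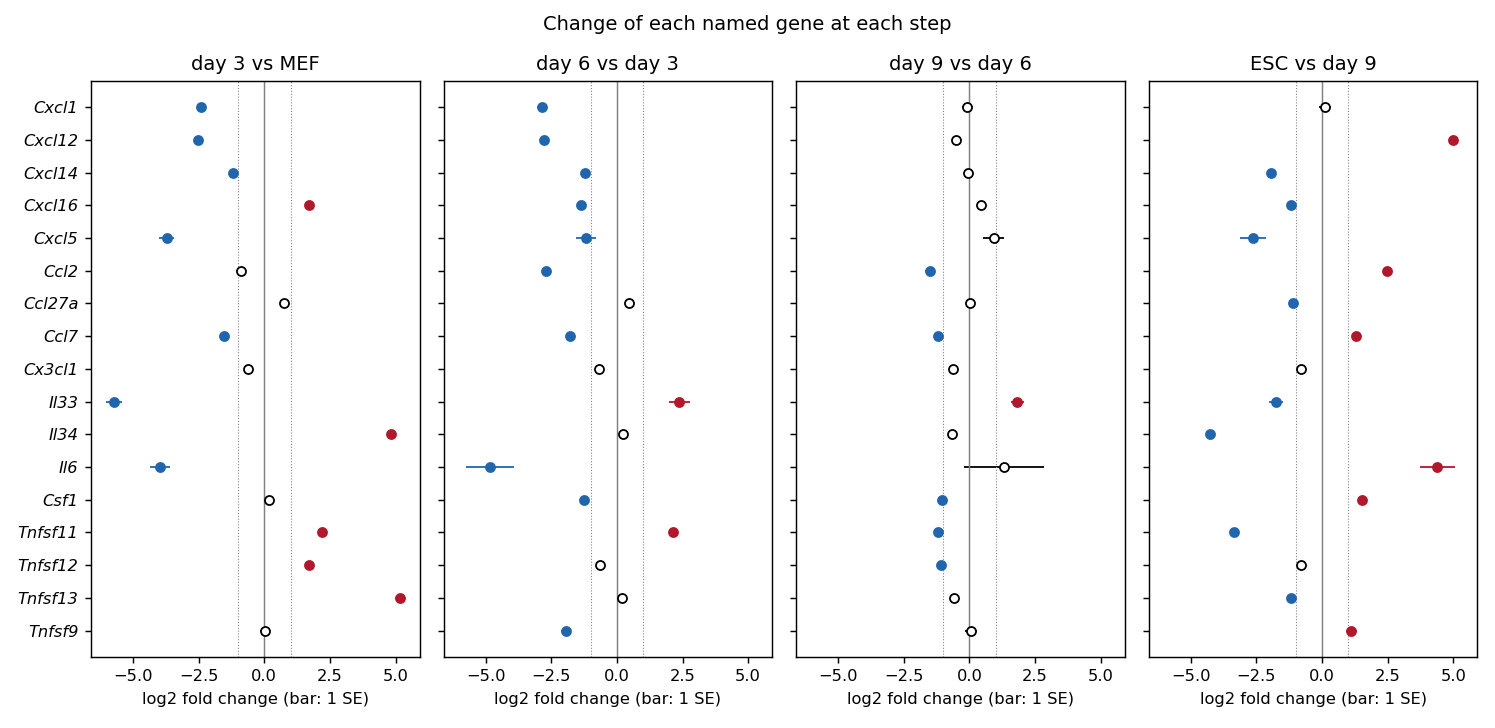
Log2 fold change (horizontal axis) of each named gene (rows) at each of 4 steps (panels), from edgeR with 1 SE as a bar. Red points were called higher, blue points lower and open points were not called, and dotted lines mark a log2 fold change of 1 in either direction. Blue points dominate the chemokine rows of the first 2 panels.

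Il34 (chr8:110741829-110805924) was low in MEFs and had the highest TPM of the ligands in both sorted groups, although in mean CPM, without length correction, Csf1 was higher there. The TPM of a gene sums all its transcripts, and length correction gives reads of short transcripts more weight. Il34-004 (675 bases) and Il34-005 (515 bases), both labelled processed transcripts, took 22.33% and 12.2% of the Il34 reads at day 6. At day 9 they took 23.17% and 12.32%, so the Il34 rank in TPM rests partly on these entries. Il34 encodes a second ligand of the Csf1 receptor and supports macrophage-lineage cells in skin and brain. Its level was 1.92 and 2.80 CPM in MEFs, 71.6 and 66.2 at day 3, 81.8 and 79.5 at day 6, 47.3 and 52.8 at day 9 and 3.15 and 2.14 in ESCs. MEF and ESC libraries overlapped, and all induced libraries were far above them. The rise at day 3 was 4.84 (SE 0.13, edgeR adjusted p = 1.8e-13) on the log2 scale, and ESCs were lower than day 9 by -4.26 (SE 0.12, edgeR adjusted p = 5.6e-13). Between the induced groups it changed by less than the fold minimum, at 0.23 (SE 0.07) for day 6 and -0.68 (SE 0.08) for day 9.

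Csf1 (chr3:107741048-107760469), the macrophage growth factor that shares this receptor, was at 228 and 232 CPM in MEFs, 266 and 261 at day 3, 110.4 and 113 at day 6, 54.8 and 52.8 at day 9 and 155 and 154 in ESCs. Its groups did not overlap, with day 3 highest and day 9 lowest. The day 3 change was 0.20 (SE 0.03), well under the fold minimum. It fell by -1.24 (SE 0.03, edgeR adjusted p = 4.8e-13) at day 6 and by -1.05 (SE 0.04, edgeR adjusted p = 5e-11) at day 9, and was higher in ESCs than at day 9 by 1.52 (SE 0.04, edgeR adjusted p = 5e-14). In TPM, summed over all transcripts of a gene, Csf1 was at 48.2 and Il34 at 1.92 in MEFs, whereas at day 9 Il34 was at 40.1 and Csf1 at 10.2. The Il34 values include the short processed transcripts named above.

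Il33 (chr19:29925114-29960718), a nuclear cytokine released by damaged stromal and epithelial cells, was at 11.2 and 11.6 CPM in MEFs, 0.135 and 0.296 at day 3, 1.15 and 1.09 at day 6, 3.02 and 4.85 at day 9 and 1.09 and 1.26 in ESCs. Day 3 was lowest, with 5 and 10 reads, and day 9 lay between MEF and the rest. It fell at day 3 by -5.72 (SE 0.32, edgeR adjusted p = 7.9e-10), then rose at day 6 by 2.38 (SE 0.39, edgeR adjusted p = 0.00013) and at day 9 by 1.82 (SE 0.26, edgeR adjusted p = 6.3e-05). By limma on log2(TPM + 1) neither rise was called, at 0.55 (adjusted p = 0.089) for day 6 and 0.50 (adjusted p = 0.16) for day 9. On log2(TPM + 0.1) limma called the rise at day 6 but not that at day 9, which was 0.95 with an adjusted p of 0.18, and the day 9 libraries held 94 and 192 reads.

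Il6 (chr5:30013114-30019981), the inflammatory cytokine that signals through Il6ra and gp130, was at 7.54 and 9.15 CPM in MEFs and 0.808 and 0.236 at day 3, a fall of -3.97 (SE 0.39, edgeR adjusted p = 4.3e-07) on the log2 scale. It then had 0 and 1 reads at day 6 and 2 and 1 at day 9, at or under the floor of 3 reads, so no fold is given for those days. In ESCs it was at 1.03 and 0.908 CPM, above all day 6 and day 9 libraries and below MEFs by -3.10 (SE 0.36, edgeR adjusted p = 1.8e-06).

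In the TNF family, 3 ligands above 5 CPM rose together with Il34 at day 3. Tnfsf11 (RANKL, chr14:78277445-78308043), the osteoclast differentiation factor, was at 3.73 and 3.41 CPM in MEFs, 16.4 and 16.5 at day 3, 73.6 and 72.7 at day 6, 33.5 and 29.98 at day 9 and 2.77 and 3.42 in ESCs. MEF and ESC overlapped, and the sorted day 6 cells were highest. It rose by 2.21 (SE 0.10, edgeR adjusted p = 9.9e-11) at day 3 and by 2.15 (SE 0.07, edgeR adjusted p = 2.1e-12) at day 6, fell by -1.21 (SE 0.06, edgeR adjusted p = 2.2e-09) at day 9, and was lower in ESCs than at day 9 by -3.35 (SE 0.09, edgeR adjusted p = 3.1e-13).

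Tnfsf12 (TWEAK), the ligand of Tnfrsf12a, was at 18.6 and 17.3 CPM in MEFs, 60.1 and 56.1 at day 3, 37.7 and 37.2 at day 6, 17.2 and 17.8 at day 9 and 9.63 and 10.6 in ESCs. MEF and day 9 overlapped. It rose at day 3 by 1.70 (SE 0.06, edgeR adjusted p = 5.7e-12) and fell at day 9 against day 6 by -1.10 (SE 0.06, edgeR adjusted p = 6.6e-09). For that fall limma gave -0.94 on log2(TPM + 1) and -0.96 on log2(TPM + 0.1), with no call in either. Tnfsf13 (APRIL), a survival factor of B lineage cells, was at 0.295 and 0.701 CPM in MEFs, 18.8 and 18.7 at day 3, 20.8 and 21.96 at day 6, 15.5 and 13.3 at day 9 and 6.28 and 6.20 in ESCs. All its later groups stood above MEFs, with no overlap. It rose at day 3 by 5.17 (SE 0.18, edgeR adjusted p = 4.7e-12) and was higher in ESCs than in MEFs by 3.58 (SE 0.21, edgeR adjusted p = 1.2e-09).

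Tnfsf12 and Tnfsf13 lie next to each other on the minus strand of chromosome 11 (chr11:69682846-69695849, GRCm38), where the annotation also has a readthrough gene, Tnfsfm13, and an antisense gene, Tnfsf13os. Tnfsfm13 averaged 4.76 CPM (MEF), 49.98 (day 3), 39.4 (day 6), 16.9 (day 9) and 16.8 (ESC), and rose at day 3 by 3.39 (SE 0.09, edgeR adjusted p = 2.5e-13). All 3 minus-strand annotations of the locus thus rose at day 3, but the division of reads among them is uncertain. Of the Tnfsf13 transcripts, Tnfsf13-001 took 30.26% and 24.96% of the reads at day 3, 39.02% and 40.05% at day 6, 57.73% and 56.16% at day 9 and 30.31% and 31.37% in ESCs.

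Tnfsf9 (4-1BB ligand, chr17:57105325-57107757), a costimulatory ligand of T cells, fell at day 6 only among the steps to day 9. It was at 4.73 and 5.73 CPM in MEFs, 5.76 and 4.91 at day 3, 1.41 and 1.36 at day 6, 1.61 and 1.29 at day 9 and 3.33 and 2.91 in ESCs. MEF overlapped day 3 and day 6 overlapped day 9. The day 3 difference was 0.03 (SE 0.18) and was not called, and the fall at day 6 was -1.94 (SE 0.20, edgeR adjusted p = 1.1e-06). It was higher in ESCs than at day 9 by 1.11 (SE 0.20, edgeR adjusted p = 0.00023), a call lost without day 9 replicate 2 (0.95) and with limma on log2(TPM + 1) (0.63). Tnfsf9 overlaps Gm11110 and Ccl2 overlaps Gm17268, each on the opposite strand.

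The other 22 called ligands stayed under 5 CPM in every group mean. The following were picked out after their values were seen. Tnfsf15, an endothelial and myeloid TNF family ligand, averaged 3.73 CPM in MEFs and 0.0821 at day 3, a fall of -5.41 (SE 0.47, edgeR adjusted p = 1.3e-07). Il18, an inflammasome-processed cytokine, averaged 3.19 CPM in MEFs, 1.34 at day 3 and 0.436 at day 6 and was called lower at both steps. Il11, a cytokine of the Il6 family, averaged 1.55 CPM in MEFs, 0.166 at day 3 and 0.957 in ESCs. Others increased. Il7, the lymphocyte growth factor, went from 32 and 42 reads in MEFs to 4 and 7 at day 3, 14 and 15 at day 6, 87 and 116 at day 9 and 41 and 47 in ESCs, and rose at day 9 by 2.72 (SE 0.30, edgeR adjusted p = 7.5e-06). Il23a, a subunit of interleukin 23, had 2 and 4 reads in MEFs, 3 and 0 at day 3, 8 and 19 at day 6, 26 and 41 at day 9 and 72 and 86 in ESCs, and was higher in ESCs than at day 9 by 1.23 (SE 0.42, edgeR adjusted p = 0.017). Tnf itself did not exceed a group mean of 0.433 CPM. The 3 tested ligands with no call in any comparison, Cxcl3, Cxcl9 and Il4, had group means of at most 0.939 CPM.

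Genes that lie together were described by cluster, taking members within 500 kb of each other. Not all such clusters are described. The cluster with the most members (Ccl2, Ccl7, Ccl11, Ccl12, Ccl8 and Ccl1, chr11:82035571-82305690) was mixed. Of its 5 tested genes, 1 was higher and 1 lower at day 3 (14.6% and 14.5% of all genes). At day 6 against day 3, 0 were higher and 2 lower (9.26% and 10.2%). In ESCs against day 9, 3 were higher and 2 lower (18.6% and 14.3%). In the Cxcl5, Cxcl3, Cxcl15, Cxcl1 and Cxcl2 cluster (chr5:90759360-90905938, GRCm38), 4 genes were tested, of which 2 were lower at day 3 (14.5% of all genes), 3 were lower at day 6 against day 3 (10.2%), and 3 were lower at day 9 than in MEFs (19.8%), with 0 higher in these comparisons (14.6%, 9.26% and 24.1% of all genes). Cxcl2 averaged 2.06 CPM (MEF), 1.13 (day 3), 0.0903 (day 6), 0.0287 (day 9) and 1.24 (ESC). Neighbours differed in ESCs, where Cxcl2 was called higher than at day 9 and Cxcl5 lower. In the cluster of Ccl5, Ccl9, Ccl6, Ccl3 and Ccl4 (chr11:83525778-83664683), 3 of 4 tested genes (Ccl3, Ccl4 and Ccl9) were lower at day 6 than at day 3, against 10.2% of all genes, and all 4 were higher in ESCs than at day 9, against 18.6%. Ccl6, a macrophage chemokine, had 0 and 3 reads at day 9 and 46 and 60 in ESCs. Leukocyte markers differed in the same direction at both steps. At day 6 against day 3, 6 of 10 tested were lower and 0 higher, with a median of -3.72 and Lyz2 at -4.68 (SE 0.17). In ESCs against day 9, 8 of 10 were higher and 1 lower, with Lyz2 at 5.56 (SE 0.13) and Cd68 at 1.93 (SE 0.12). Their part in the values of these chemokines was not tested.

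Cxcl1, Cxcl2 and Cxcl3 of the chromosome 5 cluster hold NF-κB matches upstream of their starts. They are shown because these neighbours hold the same letters, beside Il6 and Csf1, the other named ligands with a match. In the 250 bases upstream of RefSeq starts (GRCm38.p6), 58 of the 82 ligands had an entry, and 11 of them (19.0%) held the NF-κB consensus of 10 bases on either strand, beside 8.2% of 27025 genes with an entry. In the following 60-base windows, written 5′ to 3′ on each gene's strand, capitals mark the match, with overlapping matches merged.
Cxcl1, chr5:90891149-90891208, plus strand: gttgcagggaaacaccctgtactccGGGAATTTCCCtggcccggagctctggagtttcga
Cxcl2, chr5:90903777-90903836, plus strand: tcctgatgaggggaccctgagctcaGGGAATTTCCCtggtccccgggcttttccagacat
Cxcl3, chr5:90786003-90786062, plus strand: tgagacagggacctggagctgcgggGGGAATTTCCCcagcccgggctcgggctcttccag
Il6, chr5:30013045-30013104, plus strand: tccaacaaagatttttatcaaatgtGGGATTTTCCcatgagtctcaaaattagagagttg
Csf1, chr3:107760589-107760648, minus strand: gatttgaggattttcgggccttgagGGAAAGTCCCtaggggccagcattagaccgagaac
Cxcl1, Cxcl2 and Cxcl3 hold the same 11 letters, GGGAATTTCCC, which give 1 match on each strand, offset by 1 base. Cxcl3 was not called in any comparison, at group means of 0.326 CPM at day 9 and 0.572 in MEFs. The day 3 log2 differences were negative in all 3 genes, at -2.42 (SE 0.10) for Cxcl1 and, not called, -0.86 (SE 0.35) for Cxcl2 and -1.10 (SE 0.52) for Cxcl3 (edgeR adjusted p = 0.078). Other tested ligands with a match went both ways at day 3. Il6 (-3.97, SE 0.39) and Cxcl10 (-2.53, SE 0.53) were called lower. Ccl9 (-0.71, SE 0.47), Csf1 (0.20, SE 0.03) and Il16 (0.41, SE 0.52) were not called. The AP-1 motif, TGAGTCA or its reverse complement TGACTCA, was found in 11 of 58 ligands (19.0%) and in 5.2% of all genes with an entry. Of the 10 named ligands with an entry, 3 held it. They were Il6, which fell at day 3, Tnfsf13, which rose, and Ccl27a, which was not called at that step. A match is a run of letters and does not show binding.

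Receptors and signalling genes were counted from lists chosen together with the ligands. Over all tested genes, 14.6% were higher and 14.5% lower at day 3, and 24.1% and 19.8% at day 9 against MEF. Of 28 tested interleukin and CSF receptors, 1 was higher and 11 were lower (39.3%) at day 3 than in MEFs, and 3 were higher and 18 were lower (64.3%) at day 9 than in MEFs. Of 25 tested TNF receptor genes, 4 were higher and 11 lower (44.0%) at day 3, and 4 and 13 (52.0%) at day 9 against MEF. Of 16 chemokine receptors, 2 were higher and 3 lower at day 3 (12.5% and 18.8%), shares near those over all genes, and 3 and 6 (37.5%) at day 9 against MEF. The NF-κB signalling list of 27 genes had 1 higher and 6 lower (22.2%) at day 3, and 2 and 6 at day 9 against MEF, where the lower share of 22.2% was near that over all genes. Of 16 tested related ligands outside the symbol rule, 4 were higher and 7 lower (43.8%) at day 3, and 1 and 8 (50.0%) at day 9 against MEF.

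Among these genes, Il1rl1, the receptor of Il33, fell at day 3 from 44.7 and 47.5 to 0.458 and 0.384 CPM (-6.76 (SE 0.15, edgeR adjusted p = 2.6e-14)). Il33 and its receptor were thus both low at day 3. Il1r1, the receptor of interleukin 1, fell from a mean of 73.1 to 3.51 CPM, and at day 9 averaged 0.0895. Il6ra rose from 6.30 to 54.2 CPM (3.11 (SE 0.08, edgeR adjusted p = 1.2e-13)), opposite to its ligand Il6. Il6st, which encodes gp130 and is added here beside Il6ra, fell from 526 to 234 CPM (-1.17 (SE 0.04, edgeR adjusted p = 4.5e-12)). Il13ra1, a receptor chain for interleukin 13, was lower at day 9 than in MEFs, at 3.98 against 75.3 CPM.

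In the TNF receptor list, Tnfrsf12a, the receptor of Tnfsf12, fell at day 3 from 122 to 27.1 CPM while its ligand rose. The decoy receptor gene Tnfrsf23 fell from 44.2 to 3.52 CPM, and Fas, a death receptor, rose from 7.30 to 24.8. Tnfrsf11b (osteoprotegerin), the secreted decoy of Tnfsf11, was at 57.6 and 58.99 CPM in MEFs, 99.6 and 100.4 at day 3, 10.2 and 9.29 at day 6, 2.73 and 2.80 at day 9 and 13.1 and 14.8 in ESCs. It was lower at day 9 than in MEFs by -4.39 (SE 0.08, edgeR adjusted p = 1.7e-15). Decoy and ligand exchanged order between day 3 and day 6 in CPM, a scale that does not correct for gene length.

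From the NF-κB list, Nfkbiz, a nuclear regulator of NF-κB target genes, fell at day 3 from 195 to 41.9 CPM, and Myd88, the adaptor of Toll-like and interleukin 1 receptors, from 41.6 to 20.1. Irak3, an inhibitor of that pathway, rose from 8.83 to 79.7 CPM (3.16 (SE 0.08, edgeR adjusted p = 1e-13)). Most of the list was not called at day 3 and went both ways. Under the fold minimum, Nfkb1 (0.59, SE 0.04) and Nfkbia (0.81, SE 0.05) rose and Nfkb2 (-0.76, SE 0.05) fell. The list median was -0.07, beside 0.08 over all genes. Vcam1, an adhesion molecule induced by TNF, averaged 150.0 CPM in MEFs, 198 at day 3 and 3.68 at day 9. Outside the symbol rule, Il1rn, the secreted antagonist of interleukin 1, rose from 21.1 and 19.5 CPM in MEFs to 193 and 188 at day 3 (3.23 (SE 0.05, edgeR adjusted p = 7.9e-16)) and was then at 9.58 and 10.4 at day 6 and 2.03 and 2.00 at day 9. Mif, a cytokine of wide expression, averaged 370.2 CPM in MEFs, 145 at day 3 and 331 at day 9.

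Receptors of Csf1, Il34, Tnfsf11 and Cxcl12 were looked up after the levels of these ligands were known. Those of other abundant ligands, such as Ccl7 and Ccl2, are not described. Csf1r, the receptor of Csf1 and Il34, averaged 3.69 CPM (MEF), 2.10 (day 3), 0.0752 (day 6), 0.113 (day 9) and 2.93 (ESC), so its RNA was scarce where Il34 was highest. Tnfrsf11a (RANK), the receptor of Tnfsf11, averaged 9.36 CPM (MEF), 2.68 (day 3), 0.641 (day 6), 0.870 (day 9) and 1.78 (ESC). Cxcr4, a receptor of Cxcl12, was at 0.923 and 1.01 CPM in MEFs, 13.1 and 10.97 at day 3, 27.7 and 29.4 at day 6, 18.4 and 20.1 at day 9 and 0.471 and 0.721 in ESCs. It rose at day 3 by 3.63 (SE 0.16, edgeR adjusted p = 6.7e-11) and at day 6 by 1.24 (SE 0.09, edgeR adjusted p = 4.3e-08), and was lower in ESCs than at day 9 by -4.99 (SE 0.16, edgeR adjusted p = 1.7e-12), in each case opposite in sign to its ligand. From day 6 to day 9 both had negative log2 differences under the fold minimum, -0.57 (SE 0.09) for Cxcr4 and -0.53 (SE 0.13) for Cxcl12. Ackr3, a scavenging receptor of Cxcl12, averaged 20.3 CPM (MEF), 17.4 (day 3), 26.0 (day 6), 21.1 (day 9) and 6.96 (ESC). It was called only in ESCs, which were lower than day 9 by -1.59 (SE 0.10, edgeR adjusted p = 3.1e-09) and lower than MEF by -1.55 (SE 0.10, edgeR adjusted p = 2.9e-09).

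**Figure D5:**
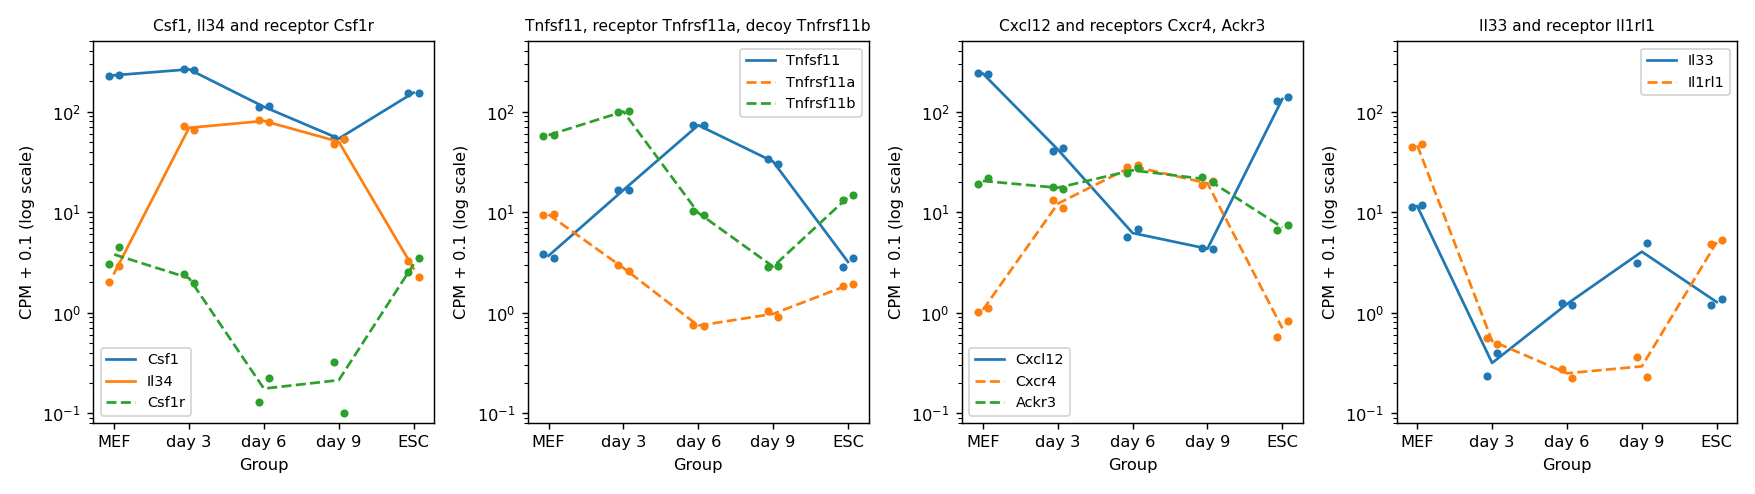
CPM plus 0.1 on a log scale (vertical axis) of 4 ligand groups (solid lines) and their receptors or decoy (dashed lines) in the 5 groups (horizontal axis). Points are libraries and lines join group means. Il34 and Tnfsf11 are high at day 6, where Csf1r and Tnfrsf11a average 0.0752 and 0.641 CPM, and Cxcr4 is higher in the induced groups than in MEFs and ESCs, while Cxcl12 is lower there.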

How the data were processed

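RNA-seq libraries (stranded mRNA kit, single reads of 50 nt, 1 batch label) came from 5 groups of 2 biological replicates. Per the submitters' processing notes, Salmon 0.8.2 and mm10 were used. Annotation release and strand setting are not given in the sources used here. The deposited tables hold, per the file headers, an estimated count and a TPM value for each of 109617 transcripts, made by the authors. Here both were summed per gene, and the estimated counts were rounded. Depth was 29585876 to 38275024 estimated reads. Replicate pairs had a chi-square per degree of freedom of 2.91 to 5.43, above that of count sampling alone. Dividing reads among transcripts adds error to estimated counts, so this does not show that pairs came from separate animals or cultures. All 10 libraries were kept as separate samples, as labelled. The common biological coefficient of variation, a spread that edgeR estimated over all groups, was 3.75%, and the small p-values rest on this small spread.

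Genes were filtered with filterByExpr (minimum count 10, total 15), scaled by TMM and fitted in 1 model over all 10 libraries by quasi-likelihood in edgeR 4.0.16 under R 4.3.3, with Benjamini-Hochberg adjustment over 20165 genes, for 6 comparisons. The standard error of a log2 fold change was its absolute value over the square root of F. CPM values are TMM-scaled. Named ligands were those called in at least 1 comparison with a group mean of at least 5 CPM. From each pathway list the 3 called genes of at least 20 CPM with the largest change were named for day 3 and for day 9 against MEF. The members and lists were chosen with earlier results of these data known. Alternatives were DESeq2 1.42.0, limma 3.58.1 on log2 TPM, other filters and scaling, only the 2 groups compared, protein-coding transcripts only, no fold change minimum, a replicate block, and leaving out each library. Scripts were tested on simulated data. Coordinates of all 82 ligands were looked up by gene ID in GENCODE M21 (GRCm38). Promoter sequences are from RefSeq (GRCm38.p6).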

Additional observations from a re-analysis of the deposited data

How the results depend on the processing

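Counts of called ligands moved by over 1.5 times mainly when limma was run on log2(TPM + 1). By that fit the lower genes numbered 8 instead of 13 for day 3 against MEF, 8 instead of 17 for day 6 against day 3, 3 instead of 11 for ESC against day 9 and 13 instead of 22 for day 9 against MEF. The higher genes numbered 1 instead of 5 at day 6, 0 instead of 3 at day 9 against day 6 (3 by DESeq2), 5 instead of 20 for ESC against day 9, 3 instead of 8 for day 9 against MEF and 1 instead of 8 for ESC against MEF. With log2(TPM + 0.1) the higher genes were 3 at day 6, 1 at day 9 and 5 for day 9 against MEF, and the lower genes 6 for ESC against day 9. DESeq2 and a fit to only the 2 groups compared each gave 3 higher genes at day 6, a stricter filter gave 5 higher for ESC against MEF, and dropping the fold minimum gave 9 lower at day 9 against day 6. The causes of these moves were not tested. Signs turned only for uncalled changes of named genes. Outside the fits without 1 library, they were Ccl27a at day 9 against day 6 (-0.18 with protein-coding transcripts only), Cxcl1 for ESC against day 9 (-0.25, likewise), Il34 for ESC against MEF (-0.043 and -0.061 by limma), Tnfsf11 for ESC against MEF (0.14 with library totals), Tnfsf12 for day 9 against MEF (0.26 with library totals, 0.35 and 0.37 by limma) and Tnfsf9 (-0.10 by DESeq2 and -0.039 with 2 groups at day 3, -0.011 and -0.028 by limma at day 9 against day 6). Leaving out 1 library gave ranges across 0 at day 9 against day 6 for Ccl27a (-0.075 to 0.11), Cxcl1 (-0.24 to 0.044), Cxcl14 (-0.12 to 0.026) and Tnfsf9 (-0.11 to 0.21), for ESC against day 9 for Cxcl1 (-0.014 to 0.27), for ESC against MEF for Il34 (-0.17 to 0.45), for day 9 against MEF for Tnfsf12 (-0.087 to 0.017) and at day 3 for Tnfsf9 (-0.10 to 0.17). Without 1 library the lower genes were 12 to 13 at day 3 and 15 to 18 at day 6, and the higher genes for ESC against day 9 16 to 20. Library totals in place of TMM moved the median of all genes from 0.08 to 0.28 at day 3 and from 0.19 to 0.48 for day 9 against MEF. With the replicate number as a block, 7 ligands were higher and 13 lower at day 3, 19 higher for ESC against day 9 and 21 lower for day 9 against MEF, and it changed no call of a named gene. The correlation of deviations between libraries of 1 number averaged 1e-04 (-0.02 to 0.022 over 10 pairs), which gives no sign of pairing. Depth limits the 40 untested ligands, at 16 reads or fewer.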
